A study of Drosophila melanogaster with 18 samples.

Results

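CheA, CheB and pickpocket genes were followed across heads and thoraces of male Drosophila fed the steroid analogue RU486 or its solvent. They were taken by symbol, as every symbol that begins with CheA or CheB and a digit, or that consists of ppk alone or ppk and a number. This gave 35 of the 15682 gene symbols in the count files, with 8 CheA genes, 12 CheB genes and 15 pickpocket genes. The pickpocket genes were ppk, ppk6, ppk7, ppk10, ppk11, ppk12, ppk13, ppk14, ppk16, ppk19, ppk20, ppk21, ppk23, ppk25 and ppk28. The rule uses names only, but the families were selected on measured values, the RU486 and control counts of these same samples, so levels and fold changes below describe these samples and are not independent evidence of a direction. A further 14 pickpocket genes stand in the files under CG numbers only (CG13568 is ppk29, for example) and were kept apart from the 35.

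There were 3 samples in each of 6 groups, all of adult males. Heads came from elav-GS-Gal4 flies given 100 µM RU486 for 10 days, or ethanol alone as control. Thoraces came from Act88F-GS-Gal4 flies given RU486 or ethanol in the same way, and from w1118 flies given RU486 or ethanol. GS-Gal4, or GeneSwitch, is a form of the yeast activator Gal4 that carries a steroid receptor domain and works when RU486 is bound. The neuronal elav promoter drives it in the head samples and the flight muscle promoter of Act88F drives it in the Act88F-GS-Gal4 thoraces, while w1118 flies, which carry a white mutation, have no GeneSwitch. The Act88F-GS-Gal4 stock is a single line, picked among transformants of yw embryos for low leakiness, and the labels name no UAS target transgene in any sample. Each stock has its own controls, so a stock and its background cannot be told apart. The methods speak of biological triplicates for experiments in general, and the labels do not say how many flies or which batch made each sample, so p-values measure the spread between these samples.

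CheA and CheB proteins are small secreted proteins of taste hairs, and CheB proteins are related to a lipid-binding family. They are best known from the pheromone-sensing bristles of the male foreleg, where CheB42a takes part in the response of males to female pheromones. Pickpocket genes encode subunits of sodium channels of the degenerin and epithelial sodium channel family, which serve taste, touch, pain and fluid balance in different cells. Of these, ppk23, ppk25 and ppk29 act in pheromone-sensing neurons, ppk28 is the receptor for water taste, ppk acts in larval nociceptive neurons, and ppk11 and ppk19 take part in salt taste.

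Libraries held 34020840 to 96176923 reads on genes. Heads had 63032 to 91292 CPM (read counts relative to the reads on genes of a library, scaled by edgeR's TMM method over all 18 samples) summed over 12 photoreceptor markers, and thoraces had 9987 to 30607 CPM over 10 flight muscle markers. Some libraries stood apart from the rest of their group. Head control replicates 1 and 2 carried 1291 and 374 CPM of 24 testis markers and 667 and 263 CPM of 7 gut markers, while head control replicate 3 and the 3 RU486 heads had 8.98 to 10.2 CPM of testis and 0.0298 to 0.226 CPM of gut markers. Act88F-GS-Gal4 control thorax replicate 1 carried 2390 CPM of photoreceptor markers, against 157 to 298 CPM in the other 5 thoraces of that stock. Among w1118 thoraces, RU486 replicate 1 had 37.4 CPM of testis markers, against 354 to 1232 CPM in the other 5. In whole tissue, fewer cells of a type and less RNA per cell cannot be told apart.

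**Figure D1:**
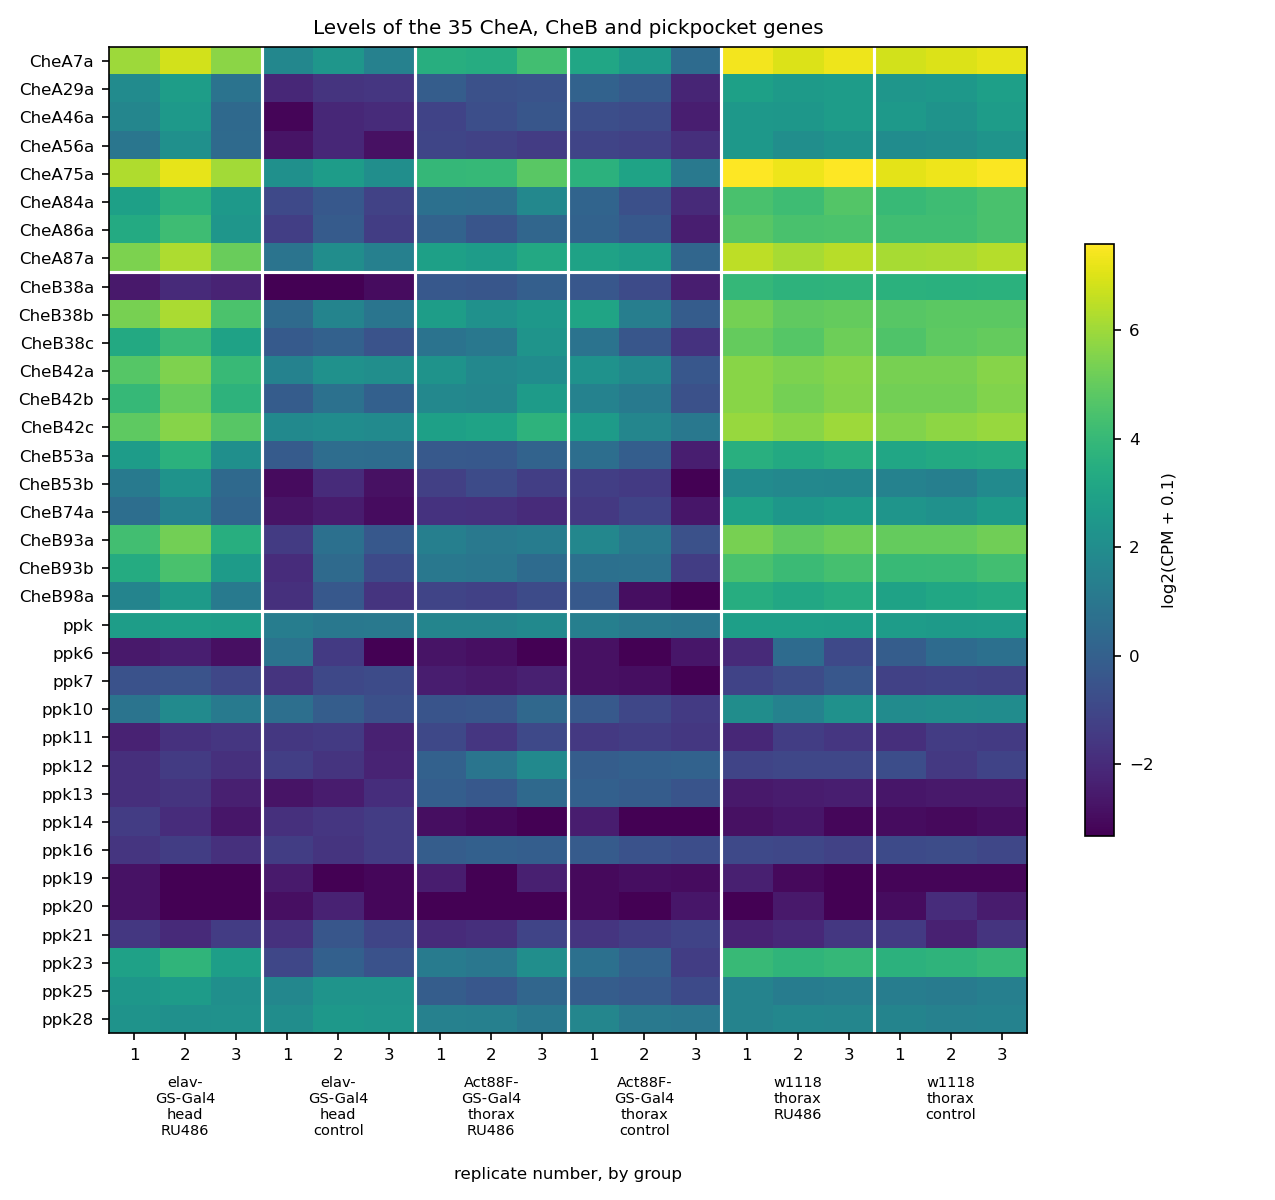
Level of each of the 35 genes (rows) in each of the 18 samples (columns, by group and replicate number) as log2(CPM + 0.1). Most CheA and CheB rows are brightest in w1118 thoraces, intermediate in RU486 heads and darker in control heads and in Act88F-GS-Gal4 thoraces, but CheB38b is brightest in RU486 heads and CheB38a is dark in all heads. Among Act88F-GS-Gal4 thoraces control replicate 3 has the darkest CheA and CheB rows.

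In elav-GS-Gal4 heads nearly the whole of both Che families stood far higher in RU486 samples than in ethanol controls. The 8 CheA genes summed to 209, 383 and 168 CPM in RU486 replicates 1, 2 and 3, against 10.2, 17.4 and 10.4 CPM in control replicates 1, 2 and 3. The 12 CheB genes summed to 164, 301 and 112 CPM in RU486 heads, against 10.5, 18.9 and 13.8 CPM in control heads. The groups did not overlap for either family. Of the 35 genes, 30 passed edgeR's filter on low counts, and 20 of these had an adjusted p under 0.05 by edgeR's quasi-likelihood test, all of them higher after RU486 and none lower. Over all genes tested in heads, 5.78% were called, 5.0% as higher and 0.779% as lower. The median log2 fold change was 3.97 over the 30 members and 0.0018 over all genes tested, of which 50.4% were above 0. This contrast is the one in which the families stand out, so the counts are given as a description.

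**Figure D2:**
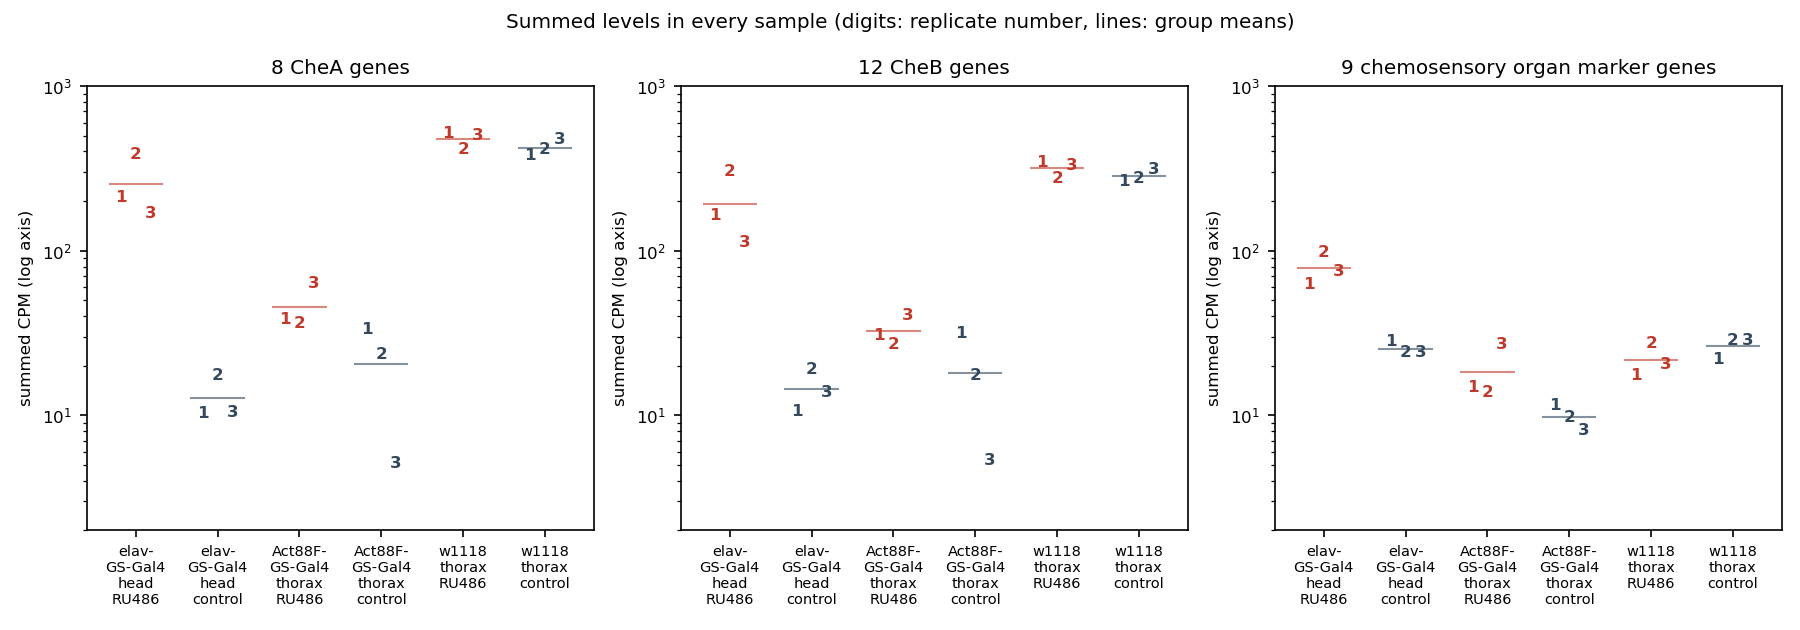
Summed CPM of the 8 CheA genes, the 12 CheB genes and 9 chemosensory organ markers (log axis) in each of the 18 samples, with RU486 samples in red, controls in dark blue, digits for the replicate number and lines for group means. In heads all RU486 samples lie above all controls in the 3 panels, while w1118 thoraces of both treatments lie together near the top for CheA and CheB.

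All 8 CheA genes were among the 20. CheA75a, the most abundant of them, had 76.7, 146 and 67.4 CPM in RU486 heads, against 4.33, 6.38 and 4.03 CPM in control heads, a log2 fold change of 4.36 ± 0.40 (SE). CheA7a had 63.6, 114.6 and 51.3 CPM in RU486 heads, against 3.24, 5.14 and 2.66 CPM in controls, and CheA87a had 42.8, 75.0 and 34.1 CPM, against 1.72, 3.92 and 2.62 CPM in controls. These 3 genes held most of the CheA sum in every head sample, and RU486 replicate 2 was the highest for each. CheA29a, known from male foreleg taste bristles, had 3.70, 6.52 and 1.68 CPM in RU486 heads, against 0.135, 0.207 and 0.226 CPM in controls. CheA84a had 7.31, 12.9 and 5.86 CPM after RU486, against 0.430, 0.70 and 0.339 CPM in controls, and CheA86a had 10.2, 18 and 5.18 CPM, against 0.307, 0.778 and 0.297 CPM. The last pair, CheA46a and CheA56a, was near the limit of detection in control heads. CheA46a had 143, 395 and 65 reads in RU486 heads, against 1, 5 and 11 reads in control heads, and CheA56a had 85, 295 and 68 reads, against 4, 5 and 3 reads. Across the 8 CheA genes the log2 fold change ran from 4.21 to 5.22.

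Among CheB genes, 11 of 12 passed the filter in heads and 10 were called higher. CheB38b, the most abundant, had 40.2, 72.3 and 22.1 CPM in RU486 heads, against 1.25, 2.96 and 1.81 CPM in control heads, a log2 fold change of 4.58 ± 0.58 (SE). Its neighbour CheB38c had 9.90, 17.2 and 7.76 CPM in RU486 heads, against 0.749, 0.960 and 0.594 CPM in controls. CheB38a, from the same stretch of chromosome arm 2L, had 3, 10 and 6 reads in RU486 heads, against 0, 0 and 2 reads in control heads, and did not pass the filter, so no fold is given. CheB42a, the gene with a known part in male pheromone responses, had 26.4, 44.6 and 16.0 CPM after RU486, against 2.75, 4.51 and 4.07 CPM in controls. CheB42b had 15.5, 32.9 and 13.0 CPM in RU486 heads, against 0.798, 1.56 and 0.905 CPM in controls, and CheB42c had 29.1, 48.0 and 26.6 CPM, against 3.49, 3.81 and 3.62 CPM. CheB42a and CheB42c had the highest CheB levels in control heads and log2 fold changes of 3.01 ± 0.43 and 3.29 ± 0.27 (SE), below those of most other Che genes.

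CheB53a and CheB53b lie side by side on 2R and differed in level and in fold. CheB53a had 6.35, 12.2 and 4.22 CPM in RU486 heads, against 0.773, 1.40 and 1.36 CPM in controls, with the smallest log2 fold change of the Che genes tested, 2.76 ± 0.45 (SE). CheB53b had 97, 315 and 64 reads in RU486 heads, against 2, 6 and 3 reads in controls, with the largest, 5.38 ± 0.86 (SE). The size of that fold depends on few control reads. CheB93a had 19.2, 38.6 and 11.5 CPM after RU486, against 0.270, 1.5 and 0.707 CPM in controls, and CheB74a had 66, 187 and 58 reads, against 4, 3 and 2 reads. Both groups of each gene were apart. The threshold fell between CheB98a, with 2.96, 6.07 and 2.17 CPM in RU486 heads against 0.184, 0.70 and 0.212 CPM in controls and an adjusted p of 0.0443 by edgeR's quasi-likelihood test, and CheB93b, with 10.4, 21.7 and 6.14 CPM against 0.160, 1.24 and 0.452 CPM in controls and an adjusted p of 0.0589. Every RU486 head lay above every control head in each of the 19 Che genes tested, against 10.6% of all genes tested. Of these 19, CheA46a, CheA56a, CheB53b and CheB74a passed the filter through their RU486 heads alone. The direction of those genes is therefore not a result. RU486 replicate 2 was the highest sample of its group in 20 of 20 Che genes and replicate 3 the lowest in 19.

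**Figure D3:**
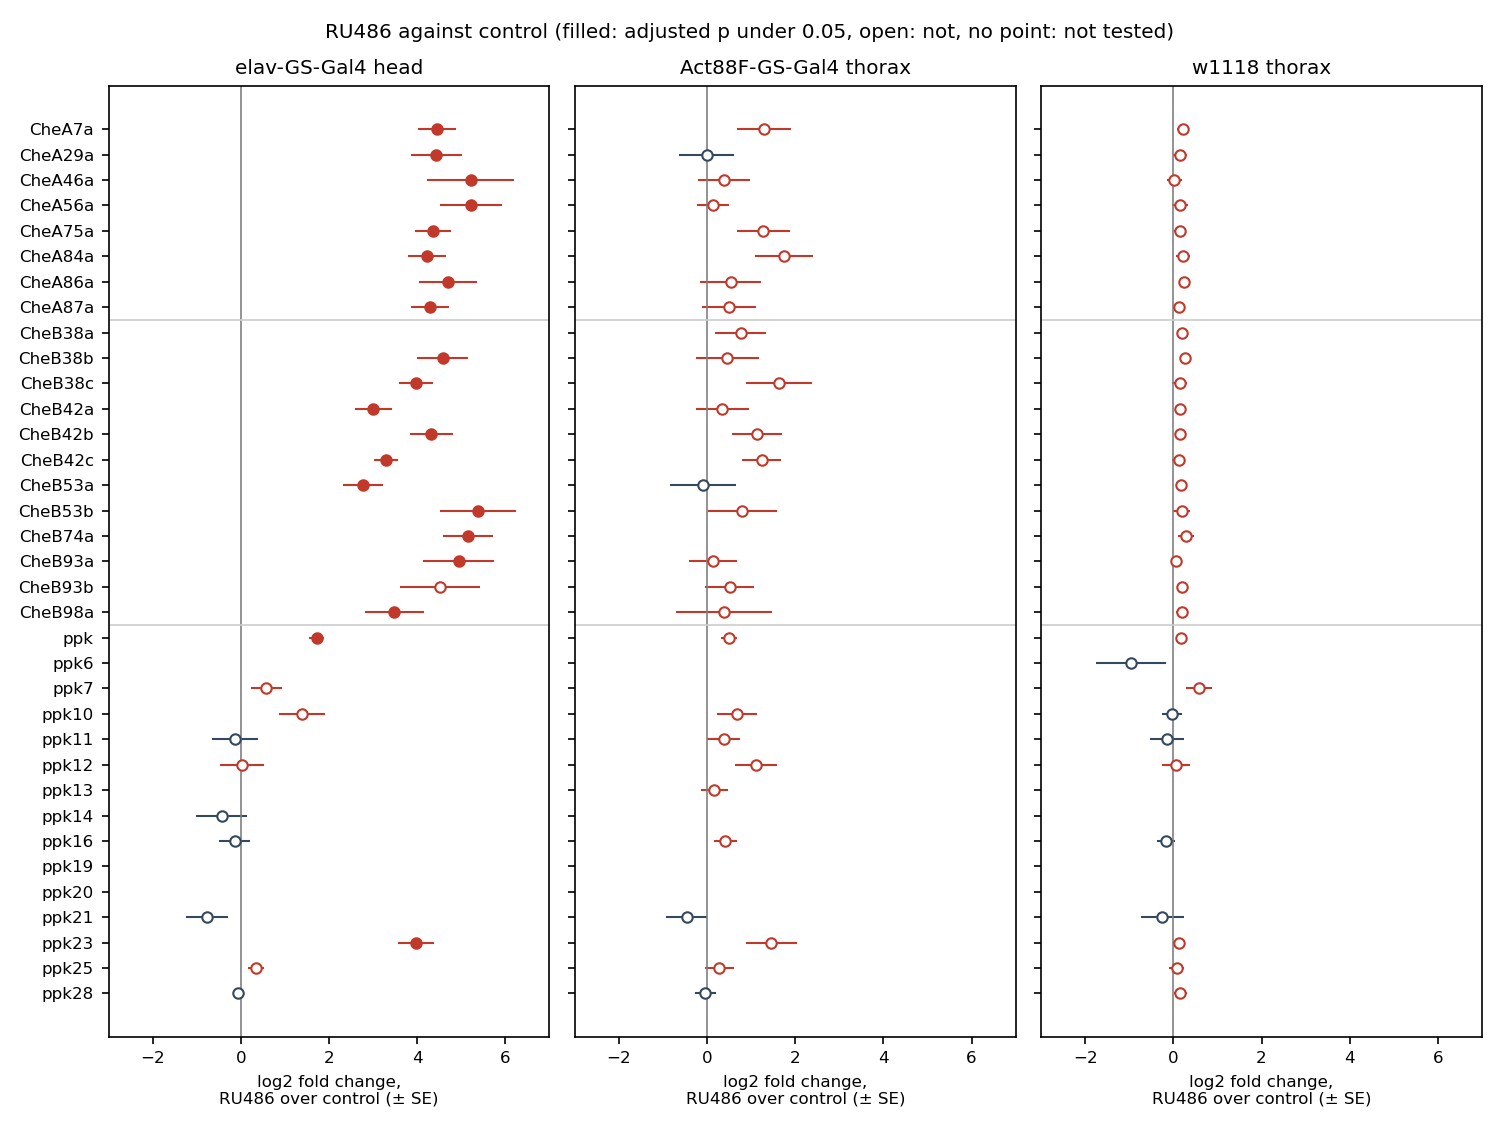
Log2 fold change of RU486 over control with its SE for each gene that passed the filter, in elav-GS-Gal4 heads, Act88F-GS-Gal4 thoraces and w1118 thoraces (filled points have an adjusted p under 0.05, red is above 0 and dark blue below). In heads the Che genes lie between 2.76 and 5.38 while most pickpocket genes lie near 0, and no point is filled in either thorax panel.

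The pickpocket genes did not move together in heads. Of 15, 11 passed the filter, 2 were called higher and the median log2 fold change was 0.02. One of the 2 was ppk23, the channel gene of pheromone-sensing neurons, with 7.44, 13.8 and 6.84 CPM in RU486 heads, against 0.405, 0.908 and 0.580 CPM in control heads, and its log2 fold change of 3.97 ± 0.40 (SE) was within the range of the Che genes. The other was ppk, the nociceptor gene, with 6.70, 7.11 and 6.59 CPM after RU486, against 2.33, 1.95 and 2.02 CPM in controls, a log2 fold change of 1.72 ± 0.17 (SE). Unlike the Che genes, ppk was nearly level among the RU486 heads. By contrast ppk25, which lies within the CheB42 stretch and also belongs to pheromone-sensing neurons, had 5.35, 6.14 and 4.24 CPM in RU486 heads, against 3.18, 4.90 and 4.85 CPM in control heads. Its groups overlapped, with a log2 fold change of 0.35 ± 0.19 (SE) and an adjusted p of 0.316 by edgeR's quasi-likelihood test. The water receptor ppk28 had 4.74, 4.40 and 4.44 CPM in RU486 heads, against 4.0, 5.52 and 5.27 CPM in controls, a log2 fold change of -0.07 ± 0.10 (SE).

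The remaining pickpocket genes were low in heads. The next highest, ppk10, had 1.74, 3.64 and 2.09 CPM in RU486 heads, against 1.47, 0.830 and 0.537 CPM in control heads. These groups were apart, but the log2 fold change of 1.39 ± 0.52 (SE) had an adjusted p of 0.175 by edgeR's quasi-likelihood test. ppk7, ppk11, ppk12, ppk14, ppk16 and ppk21 had 0.0565 to 0.582 CPM after RU486 and 0.0990 to 0.648 CPM in controls, with log2 fold changes of -0.76 to 0.58. ppk6, ppk13, ppk19 and ppk20 did not pass the filter. ppk19, a salt taste gene of larvae, had 2, 0 and 0 reads in RU486 heads, against 6, 0 and 1 reads in control heads. ppk6 had 3, 6 and 2 reads in RU486 heads, against 137, 10 and 0 reads in control heads, and its highest count was in the control with the highest testis marker level. Of ppk11, the other larval salt taste gene, RU486 heads had 0.109, 0.194 and 0.226 CPM, against 0.245, 0.259 and 0.0990 CPM in control heads. In the annotation of a later build, ppk11 and ppk16 share 1 gene span, so their counts may not be told apart.

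**Figure D4:**
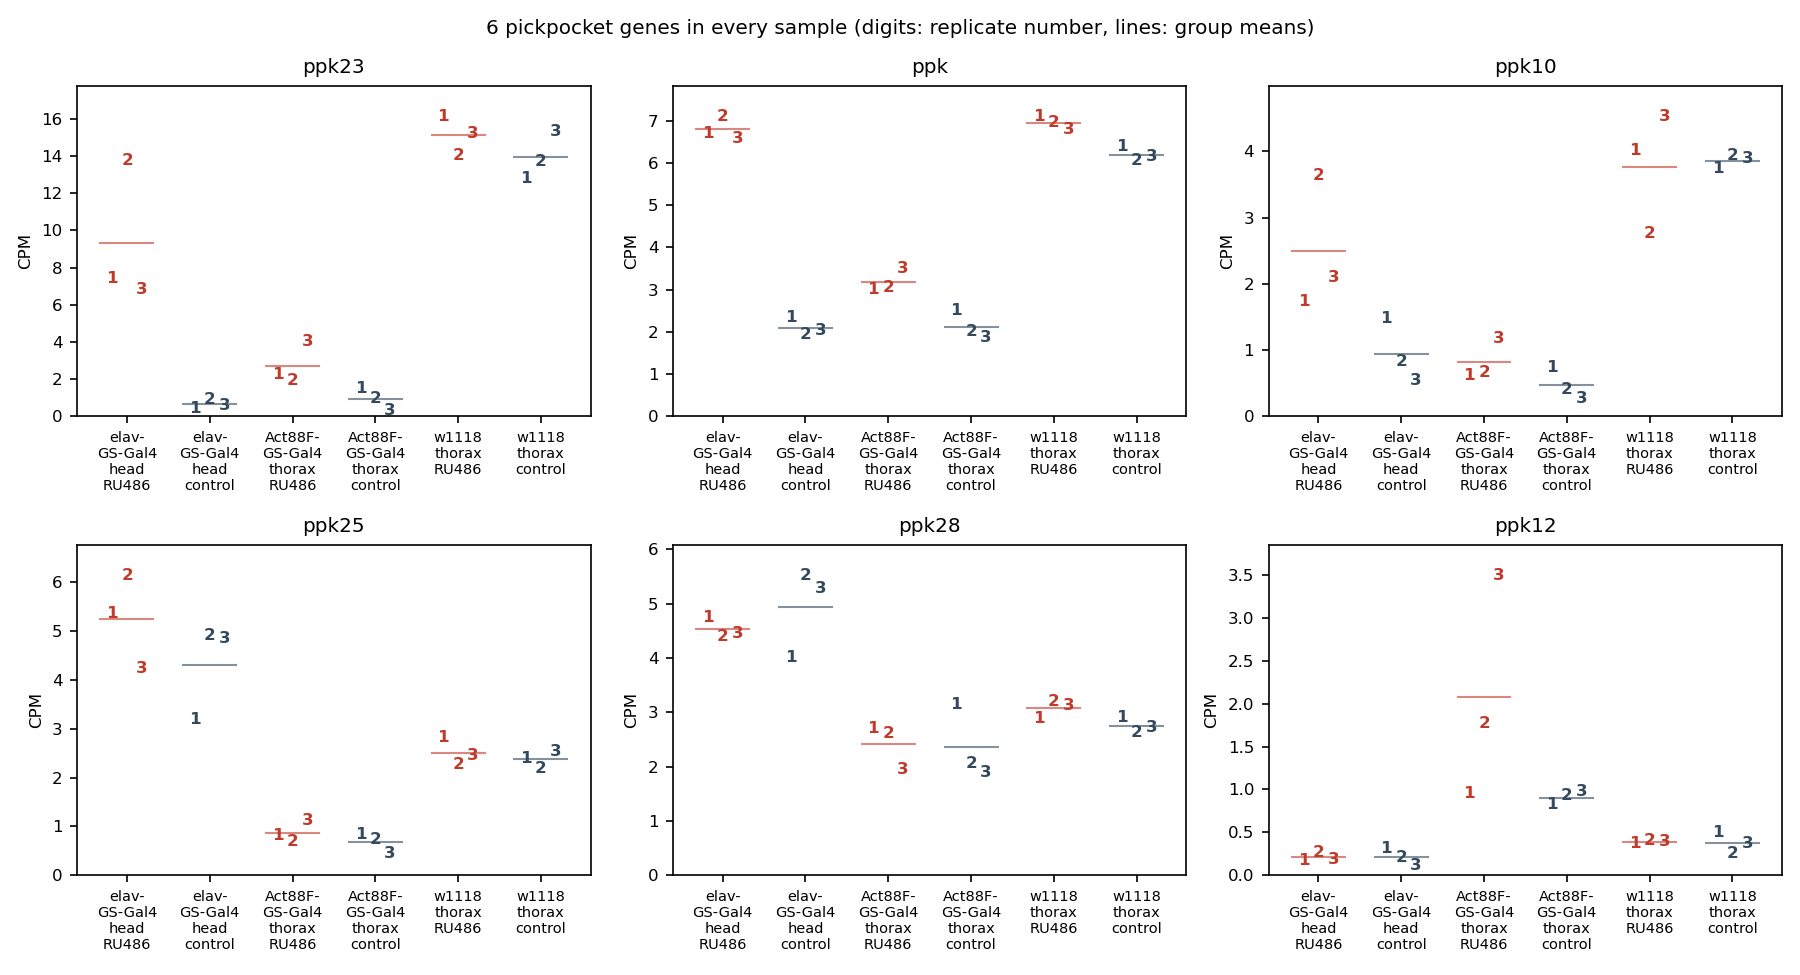
CPM of ppk23, ppk, ppk10, ppk25, ppk28 and ppk12 (linear axes from 0) in each sample, with digits for the replicate number, lines for group means, RU486 in red and control in dark blue. In heads ppk23 and ppk are apart between RU486 and control, while ppk25 and ppk28 overlap.

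Most chemosensory organ markers stood higher in the same RU486 heads. The list of 9 chemosensory organ markers summed to 62.4, 97.7 and 74.5 CPM in RU486 heads, against 28.0, 24.0 and 23.9 CPM in control heads, and 8 of the 9 were called higher. The other, the odorant-binding protein gene Obp99a, had a log2 fold change of -3.22 with an adjusted p of 0.163 by edgeR's quasi-likelihood test. Of them, the odorant co-receptor Orco had 15.5, 29.7 and 21.2 CPM in RU486 heads, against 2.18, 3.27 and 5.67 CPM in controls. None of the 9 markers was at 0 in any head. nompA encodes a protein of the cap linking sensory dendrites to bristles and other sense organs. It had 24.6, 31.7 and 21.7 CPM in RU486 heads, against 2.42, 3.92 and 3.32 CPM in controls. Of 8 mechanosensory organ markers, 3 were called higher and 0 lower, and log2 fold changes were above 0 in 5 and below 0 in 3. Those called were nompA, nompC, at 1.80, and nan, at 2.47. The sum of the 8 overlapped, at 255 to 265 CPM after RU486 and 198 to 261 CPM in controls. Of 19 genes of pheromone reception and its support fixed as a list, 17 were tested, 12 were higher, none was lower, and their median log2 fold change was 2.15. This list shares Orco, Ir25a, Ir76b, Gr66a and lush with the chemosensory organ markers above. All of these shared genes were among those called higher, so the lists are not separate observations. Gr33a, a bitter receptor gene on the pheromone list, had 2.46, 2.37 and 2.13 CPM in RU486 heads, against 0.331, 0.519 and 0.410 CPM in control heads. The sex determination gene dsx had a log2 fold change of 0.60 and was called higher, and fru had 0.19 and was not. The part of these markers in the Che levels was not tested.

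Summed markers of neurons and photoreceptors overlapped between the head groups. The 11 neuronal markers summed to 3959 to 5545 CPM in RU486 heads and 3785 to 4845 CPM in control heads, and the 12 photoreceptor markers summed to 66850 to 75319 CPM in RU486 heads and 63032 to 91292 CPM in control heads. In both lists no gene was called. The 10 flight muscle markers did not overlap, at 4312, 5705 and 4229 CPM in RU486 heads, against 3392, 3612 and 3382 CPM in control heads. RU486 replicate 2 was the highest there as it was for the Che genes, 1 of the 10 was called higher, and the part of these markers in the Che levels was not tested.

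The number of members called in heads depended on single libraries. With 20 members called from all samples, leaving out RU486 replicate 1 or 3 left 0, leaving out RU486 replicate 2 left 7, and leaving out control replicate 1, 2 or 3 gave 10, 4 and 21. The median log2 fold change of the members was 3.56 to 4.19 in these 6 fits, and single genes moved more. Without RU486 replicate 2 the log2 fold change was 4.53 for CheA46a, 4.47 for CheA56a, 4.60 for CheB53b, 4.32 for CheB93a and 3.86 for CheB93b. Without control replicate 2 it was 6.23 for CheB53b, 5.57 for CheB93a, 5.39 for CheB93b and 4.19 for CheB98a, and without control replicate 3 it was 5.89 for CheA46a. Over all genes tested, 616 were called from all samples, 1 without RU486 replicate 1, 163 without RU486 replicate 2 and 0 without RU486 replicate 3. Leaving out control replicate 1, 2 or 3 gave 325, 106 and 3381 calls over all genes. Set against head control replicate 3 alone, the control with testis and gut markers near 0, the median was 4.21 and 1 member was called. That fit, chosen after the data were seen, assumes that the lone control would vary like the RU486 samples. From all samples limma voom called 7 members and 504 of all genes, and DESeq2 called 21 members and 1902 of all genes.

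RU486 heads were nearer than control heads to w1118 thoraces in their summed Che level. The 20 Che genes summed to 373, 684 and 280 CPM in RU486 heads, while RU486 thoraces of w1118 had 857, 685 and 826 CPM. The most abundant gene took a like share of the sum in both, while the ranges of several others were apart. CheA75a took 20.6% to 24.1% of the sum in RU486 heads and 22.2% to 23.2% in RU486 thoraces of w1118, and CheA7a took 16.7% to 18.3% and 18.6% to 19.6%. The largest departure was CheB38a, with 0.0175% to 0.0404% in RU486 heads, against 1.65% to 1.91% in w1118 RU486 thoraces, where it had 15.2, 13.1 and 13.6 CPM. Its neighbour CheB38b went the other way, with 7.91% to 10.8% in RU486 heads, against 3.86% to 4.55% in w1118 RU486 thoraces. CheB74a took 0.385% to 0.407% in RU486 heads and 0.765% to 0.862% in w1118 RU486 thoraces. These departures of CheB38b and CheB74a from w1118 were not limited to heads. RU486 thoraces of Act88F-GS-Gal4 flies had 5.45% to 9.58% of CheB38b and at most 0.306% of CheB74a. They had 22.1% to 27.1% of CheA75a and 16.7% to 18.8% of CheA7a. Their CheB38a share, 0.873% to 1.06%, lay above that of RU486 heads. Tissue, stock and library set differ together here, and no test was made of these shares.

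**Figure D5:**
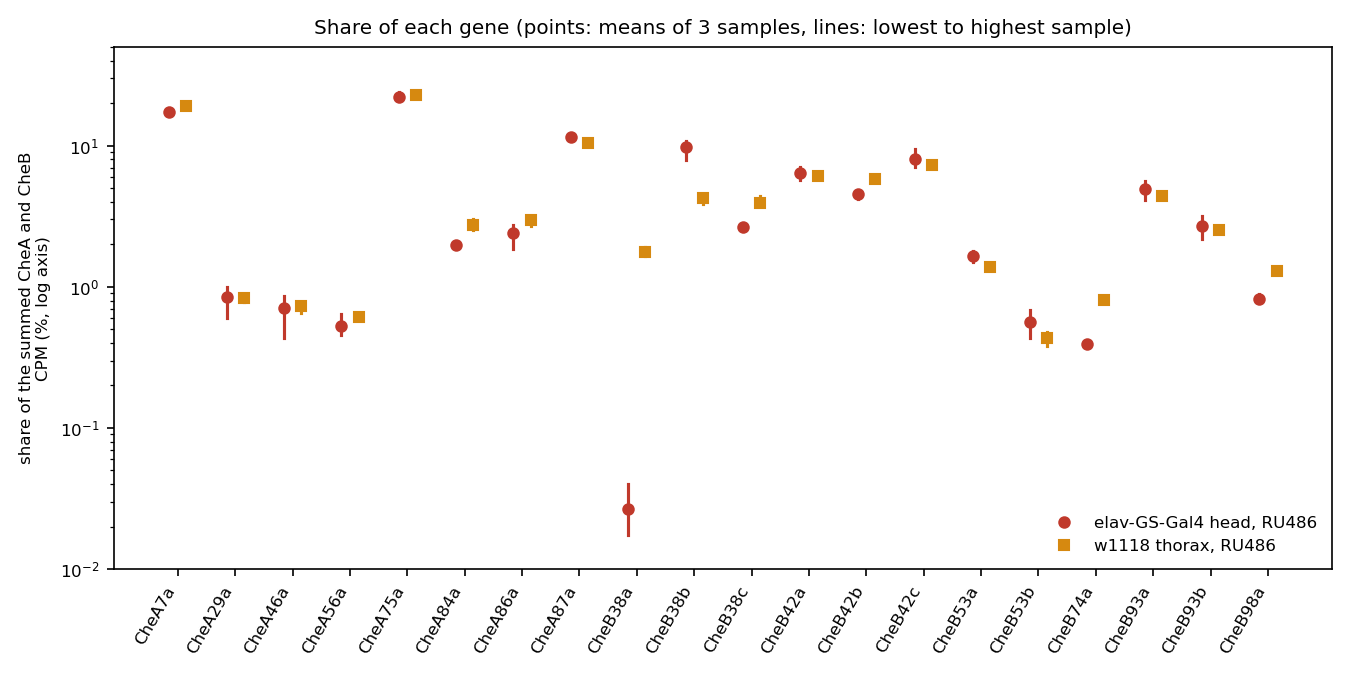
Share of each CheA and CheB gene in the summed CPM of the 20 genes (%, log axis), as means with the lowest and highest of 3 samples, in RU486 heads of elav-GS-Gal4 flies (red circles) and RU486 thoraces of w1118 flies (orange squares). CheA75a takes a like share in both, and the ranges of several other genes are apart. CheB38a takes a far smaller share in heads and CheB38b a larger one.

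In Act88F-GS-Gal4 thoraces no CheA, CheB or pickpocket gene on the list passed the test. Of 29 members tested, 0 had an adjusted p under 0.05 by edgeR's quasi-likelihood test, although 32.5% of all genes tested did, 12.6% as higher and 19.9% as lower. At an unadjusted p under 0.05 there were 4 members, and 4663 of all genes tested. DESeq2 called 4 members, limma voom 0 and limma on log2(CPM + 1) 1, where they called 3982, 3335 and 3387 of all genes. The log2 fold change was above 0 in 25 of 29 members, with a median of 0.49, against 51.1% of all genes tested and a median of 0.01. In 10 of 29 members every RU486 thorax lay above every control thorax, against 29.8% of all genes. CheB74a, ppk6, ppk7, ppk14, ppk19 and ppk20 did not pass the filter.

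The controls of this stock were far apart in Che genes. The 20 genes summed to 68.4, 63.0 and 103 CPM in RU486 thoraces, against 64.6, 40.5 and 10.4 CPM in control thoraces. Control replicate 3 was the lowest of its group in 20 of 20 Che genes and replicate 1 the highest in 18, and the highest control sum was 6.23 times the lowest, against 1.63 times among RU486 thoraces. Control replicate 1 was also the thorax with 2390 CPM of photoreceptor markers, and the part of this in its Che level was not tested. CheA75a had 15.1, 15.7 and 27.8 CPM in RU486 thoraces, against 12.8, 7.88 and 2.00 CPM in control thoraces. CheA7a had 11.4, 10.5 and 19.4 CPM after RU486, against 8.62, 5.86 and 1.33 CPM in controls, and CheA87a had 7.32, 6.41 and 9.54 CPM, against 7.76, 6.69 and 1.12 CPM. CheA75a and CheA7a were apart between the groups, and CheA87a overlapped.

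CheB42c had the lowest p of the Che genes in these thoraces. It had 7.30, 7.95 and 13.2 CPM in RU486 thoraces, against 6.27, 3.08 and 1.97 CPM in control thoraces, a log2 fold change of 1.24 ± 0.45 (SE) with an adjusted p of 0.0809 by edgeR's quasi-likelihood test. CheA84a had 1.52, 1.49 and 3.28 CPM after RU486, against 1.04, 0.530 and 0.147 CPM in controls, with a log2 fold change of 1.74 ± 0.66 (SE) and an adjusted p of 0.0900. The sensory genes CheA29a and CheB42a overlapped between groups. CheA29a had 0.819, 0.543 and 0.588 CPM in RU486 thoraces, against 0.962, 0.762 and 0.118 CPM in controls, and CheB42a had 4.78, 3.33 and 3.87 CPM, against 4.67, 3.51 and 0.677 CPM. Over the 19 Che genes tested the log2 fold change ran from -0.09 to 1.74. CheB98a reached 0 reads in control replicate 3, as did CheB53b.

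Among pickpocket genes of Act88F-GS-Gal4 thoraces, ppk was the member nearest the threshold. It had 2.99, 3.05 and 3.50 CPM in RU486 thoraces, against 2.50, 2.02 and 1.86 CPM in control thoraces, a log2 fold change of 0.50 ± 0.17 (SE) with an adjusted p of 0.0683 by edgeR's quasi-likelihood test. ppk23 had 2.24, 1.91 and 4.03 CPM after RU486, against 1.52, 0.960 and 0.294 CPM in controls, a log2 fold change of 1.45 ± 0.58 (SE) with an adjusted p of 0.101. Both were apart between the groups. ppk12 had 0.953, 1.77 and 3.50 CPM in RU486 thoraces, against 0.819, 0.927 and 0.972 CPM in control thoraces, and RU486 replicate 1 lay within the range of the controls. ppk25 had 0.819, 0.683 and 1.11 CPM after RU486, against 0.839, 0.728 and 0.442 CPM in controls, and ppk28 had 2.71, 2.61 and 1.95 CPM, against 3.13, 2.05 and 1.88 CPM. Neither pair of groups was apart. ppk11 had 0.418, 0.228 and 0.434 CPM in RU486 thoraces, against 0.246, 0.298 and 0.236 CPM in control thoraces, and ppk19 had 5, 0 and 3 reads, against 1, 1 and 1 reads.

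The calls in these thoraces also changed with single libraries. Leaving out control replicate 1 gave 4 calls among the members and 3643 among all genes. It raised the log2 fold change of CheB42c to 1.82 and of CheA84a to 2.55. Leaving out RU486 replicate 1 gave 1 call among the members, that of ppk12, and 2806 among all genes. Leaving out control replicate 3, the low one, gave 0 calls among the members and 2173 among all genes. It brought the median log2 fold change of the members to 0.06. Set against control replicate 2 alone, a fit chosen after the data were seen, 0 members were called and the median was 0.33. Chemosensory organ markers summed to 14.6, 13.7 and 26.8 CPM in these RU486 thoraces, against 11.4, 9.73 and 8.10 CPM in controls, with 1 of 6 tested genes called higher. Flight muscle markers summed to 13411 to 26776 CPM after RU486, against 29481 to 30607 CPM in controls, with 4 of 10 genes called lower. The part of either list in the Che levels was not tested.

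w1118 thoraces, which have no GeneSwitch, held the most Che RNA of the series and showed no called difference. Of 31 members tested, 0 had an adjusted p under 0.05 by edgeR's quasi-likelihood test, 0 had an unadjusted p under 0.05, and DESeq2 and both limma fits called 0. Over all genes tested, 0.0% were called by edgeR, 1194 genes had an unadjusted p under 0.05, and DESeq2 called 290 genes. The 20 Che genes summed to 857, 685 and 826 CPM in RU486 thoraces, against 638, 686 and 786 CPM in control thoraces. The groups overlapped. All 20 Che genes had a log2 fold change above 0, from 0.03 to 0.29 with a median of 0.17, against 45.7% of all genes tested and a median of -0.02. The genes share the same 6 libraries and are not 20 separate observations. RU486 replicate 1 was the highest of its group in 15 of the 20 and RU486 replicate 2 the lowest in 19, while control replicate 3 was the highest of its group in 19.

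The most abundant members of w1118 thoraces were the same 3 CheA genes that led in RU486 heads. CheA75a had 191, 156 and 191 CPM in RU486 thoraces, against 142, 159 and 185 CPM in control thoraces. CheA7a had 167.9, 127.2 and 155.8 CPM after RU486, against 114.6, 127.3 and 144.9 CPM in controls, and CheA87a had 89.3, 70.9 and 85.6 CPM, against 70.4, 73.2 and 82.1 CPM. Each gene overlapped between the groups. CheB42c had 59.96, 49.4 and 63.2 CPM in RU486 thoraces, against 46.1, 52.2 and 60.5 CPM in controls, and CheB42a had 50.5, 43.4 and 48.9 CPM, against 40.7, 40.7 and 47.8 CPM. CheA29a had 7.18, 6.07 and 6.47 CPM after RU486, against 5.16, 5.6 and 6.94 CPM in controls. The lowest adjusted p of any member by edgeR's quasi-likelihood test was 0.539, that of CheB38b, which had 39.0, 30.1 and 31.9 CPM in RU486 thoraces, against 26.9, 28.4 and 28.2 CPM in control thoraces, and was apart between the groups, as was CheB38a. In 4 of the 31 members all RU486 thoraces lay above all controls, against 9.65% of all genes tested, and in none did all lie below, against 10.1%.

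No pickpocket gene of w1118 thoraces passed the test. ppk23 had 16.2, 14.0 and 15.2 CPM in RU486 thoraces, against 12.8, 13.7 and 15.3 CPM in control thoraces. ppk had 7.12, 6.95 and 6.80 CPM after RU486, against 6.39, 6.06 and 6.14 CPM in controls, a log2 fold change of 0.17 ± 0.09 (SE), and the groups were apart. ppk25 had 2.81, 2.26 and 2.45 CPM in RU486 thoraces, against 2.40, 2.19 and 2.54 CPM in controls. The water receptor gene ppk28 had 2.88, 3.20 and 3.13 CPM after RU486, against 2.91, 2.63 and 2.72 CPM in controls. ppk11 had 0.133, 0.290 and 0.227 CPM in RU486 thoraces, against 0.177, 0.284 and 0.262 CPM in control thoraces, and ppk19 had 7, 2 and 0 reads, against 1, 1 and 1 reads. ppk6 had 0.146, 1.29 and 0.423 CPM after RU486, against 0.818, 1.31 and 1.52 CPM in controls, lowest in the RU486 sample with 37.4 CPM of testis markers.

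Whether the response to RU486 differed between the thoraces of the 2 stocks was tested as an interaction over the 12 thorax samples. Of 32 members tested, 0 had an adjusted p under 0.05 by edgeR's quasi-likelihood test or an unadjusted p under 0.05, and DESeq2 and both limma fits called 0, against 16.2% of all genes tested by edgeR, 4.29% with a higher and 11.9% with a lower response in Act88F-GS-Gal4 flies. The member nearest the threshold was CheB42c, with a log2 difference of responses, Act88F-GS-Gal4 minus w1118, of 1.11 ± 0.52 (SE) and an adjusted p of 0.190. Its neighbours in rank were CheA84a, at 1.51 ± 0.72, and ppk23, at 1.33 ± 0.64 (SE). Leaving out control replicate 1 of Act88F-GS-Gal4 gave 3 calls among the members, with CheB42c and CheA84a, and 2364 among all genes. Heads differ from thoraces in both tissue and stock and were not set in this test.

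Thoraces of the 2 stocks differed far more from each other than by treatment. In ethanol controls, Act88F-GS-Gal4 thoraces had 28 of 33 members called against w1118 thoraces, 26 lower and 2 higher, by edgeR's quasi-likelihood test. Over all genes tested in this comparison 52.3% were called, 32.8% as lower and 19.5% as higher. All 20 Che genes were lower, by log2 fold changes of -5.10 to -2.88 and a median of -4.05, against a median of -0.12 over all genes tested. CheA75a averaged 7.57 ± 5.42 CPM in Act88F-GS-Gal4 control thoraces and 162 ± 21.5 CPM in w1118 control thoraces (SD, n = 3 each). ppk23, ppk, ppk10, ppk25, ppk7 and ppk6 were also lower, ppk23 with a log2 fold change of -3.91 ± 0.61 and ppk with -1.54 ± 0.22 (SE). ppk6, at -5.06, was the last member inside the threshold, with an adjusted p of 0.0455 by edgeR's quasi-likelihood test. The 2 that were higher were ppk12, at 1.28 ± 0.45, and ppk13, at 3.54 ± 0.51 (SE), where Act88F-GS-Gal4 controls had 0.921, 0.795 and 0.618 CPM of ppk13, against 0.0591, 0.0681 and 0.0683 CPM in w1118 controls. With each of the 9 control samples left out in turn ppk13 kept its call in all 9 fits, and ppk12 lost its call in 7. Testis markers were at 9.77 to 11.1 CPM in Act88F-GS-Gal4 controls, against 621 to 1232 CPM in w1118 controls. Chemosensory organ markers were at 8.10 to 11.4 CPM in Act88F-GS-Gal4 controls, against 21.7 to 28.6 CPM in w1118 controls, with 4 of 9 called lower, and nompA had a log2 fold change of -3.52. Flight muscle markers were at 29481 to 30607 CPM in Act88F-GS-Gal4 controls, against 9987 to 11209 CPM in w1118 controls, with 8 of 10 called higher. The part of these 3 marker lists in the Che and pickpocket values, those of ppk6 among them, was not tested. The stock, its background and its library set cannot be told apart.

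Control heads were set against the mean of both control thorax groups. Of 33 members tested, 26 were called, 22 lower and 4 higher in heads, where 52.8% of all genes tested were called, 21.0% as lower and 31.8% as higher. The Che genes were below 0 in 20 of 20, with a median log2 fold change of -2.85, against 0.27 over all genes tested, and 18 were called. The mean of the thoraces hides their distance, since the Che sum was 20.7 to 36.3 CPM in control heads, 10.4 to 64.6 CPM in Act88F-GS-Gal4 control thoraces and 638 to 786 CPM in w1118 control thoraces. The 4 pickpocket genes higher in heads than the thorax mean were ppk25, ppk28, ppk7 and ppk14. Their log2 fold changes were 1.77 ± 0.27, 0.95 ± 0.23, 1.91 ± 0.51 and 2.86 ± 0.70 (SE), in that order. ppk14 had at most 20 reads in any of the 18 samples, so its fold rests on few reads. For ppk7, Act88F-GS-Gal4 control thoraces had 0.0735 times the mean CPM of w1118 control thoraces. Its value therefore does not show heads above w1118 thoraces, and after RU486 heads had 1.02 times the ppk7 mean of w1118 thoraces. The value of ppk14 was 4.95 without Act88F-GS-Gal4 control replicate 1, the thorax with photoreceptor markers. Control heads averaged 4.31 ± 0.98 CPM of ppk25 and 4.93 ± 0.82 CPM of ppk28 (SD, n = 3), and these were among the 3 most abundant members there, beside CheA75a with 4.91 ± 1.28 CPM. ppk23 was lower in control heads than the thorax mean, at -2.51 ± 0.54 (SE). Against that mean the pheromone-sensing genes ppk23 and ppk25 lay on opposite sides of 0. In ppk23, however, control heads overlapped Act88F-GS-Gal4 control thoraces, whose mean CPM was 0.0662 times that of w1118 control thoraces. Tissue, stock and library set cannot be told apart in the heads.

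Per kilobase of exon, the scale on which genes can be compared, CheA75a led in all 6 groups, with 138 ± 61.4 in RU486 heads, against 7.03 ± 1.83 CPM per kilobase in control heads (SD, n = 3 each). CheA7a and CheA87a were next in 5 of the 6 groups in either order. The leading pickpocket gene by this measure was ppk23 in w1118 thoraces, at 6.86 CPM per kilobase after RU486 and 6.31 in controls. ppk25 led in control heads, at 3.16 CPM per kilobase, where ppk23 had 0.29. Lengths came from a later annotation than the counts.

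Genes of the same stretch did not all follow each other. CheB42a and ppk25 lie within the span of CheB42c on the opposite strand, and in heads their log2 fold changes were 3.01, 0.35 and 3.29. Whether the counting used strand is not given in the sources used here, so reads of these 3 genes may not be fully told apart. The CheB38 stretch held the CheB genes with the lowest mean CPM in RU486 heads, CheB38a, and the highest, CheB38b.

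Pickpocket genes listed under CG numbers are shown for comparison. CG13568 is ppk29, the partner of ppk23 and ppk25 in pheromone-sensing neurons, and had 5.70, 7.59 and 5.48 CPM in RU486 heads, against 3.42, 4.33 and 4.07 CPM in control heads. Its groups were apart, with a log2 fold change of 0.72 ± 0.15 (SE) and an adjusted p of 0.0556 by edgeR's quasi-likelihood test. CG8546, or ppk26, acts with ppk in nociceptive neurons of larvae and was the only one of 8 tested that was called in heads, with 3.72, 3.70 and 3.77 CPM in RU486 heads, against 1.09, 1.87 and 1.80 CPM in controls and a log2 fold change of 1.30 ± 0.18 (SE). ppk and CG8546 were both level among the RU486 heads. The related channel genes rpk and Nach did not pass the filter in heads. rpk had 6, 1 and 0 reads in RU486 heads, against 403, 60 and 2 reads in control heads, in the same order as the testis markers of the controls.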

How the data were processed

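RNA of 18 samples (6 groups of 3) was made into stranded mRNA libraries and sequenced. The authors mapped the reads to BDGP5.75 with StrongARM and deposited HTSeq read counts per gene symbol (the submitters' processing notes name dm3, BWA, STAR and HTSeq). These counts are raw and not normalized. Lines of the files that name no gene were left out of library sizes, and 14.55% to 29.89% of reads lay outside the counted genes, by sample. Head files list 0 unaligned reads and thorax files do not, so these percentages are not on the same scale between tissues. Act88F-GS-Gal4 control thoraces had 23.69% to 29.89%, against 18.63% to 19.84% in RU486 thoraces of that stock. Libraries held 34020840 to 96176923 reads on genes, so a count of 3 corresponds to 0.0312 to 0.0882 CPM, which covers counting error only.

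Each comparison was fitted over all genes with edgeR 4.0.16 (filterByExpr, TMM, robust quasi-likelihood test) in R 4.3.3, with Benjamini-Hochberg adjustment over all genes and a threshold of 0.05. RU486 comparisons used the 6 samples of a stock, the comparison of responses used the 12 thoraces and the comparisons of controls used the 9 controls. This replaces the authors' unequal-variance test on log2(FPKM + 1), since counts were deposited. Alternatives were other normalizations and filters, DESeq2 1.42.0, limma 3.58.1, a replicate block, a fit of all 18 samples and leaving out each sample. The main fit of each comparison was run on simulated counts. Of the alternatives, total counts, no filter, DESeq2, both limma fits and the replicate block were run on simulated counts for heads only. Tables were handled with pandas 2.3.3 in Python 3.11.15. Lengths, arms and overlaps came from the BDGP6.54 annotation, in which all 35 symbols were found.

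Same-numbered RU486 and control samples of w1118 thoraces had r of 0.566, 0.303 and 0.469 across genes in their deviations from group means. RU486 replicate 2 and control replicate 3 of that stock, with unlike numbers, had r of 0.448. The other pairs with unlike numbers had r of -0.603 to -0.0729. Deviations within a group are tied to each other, so these values cannot decide whether w1118 samples were paired by number. In the other stocks r of same-numbered samples ran from -0.147 to 0.0725. Numbers were not taken as pairs in the main fit of any stock, and the replicate block was an alternative only.

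Genes named with values were those called in any RU486 comparison or in the comparison of responses, the 3 of highest mean CPM in each group, and ppk, ppk11, ppk19, ppk23, ppk25, ppk28, ppk29, CheA29a and CheB42a. Others were added after their values were seen. The members and lists were chosen with earlier results of these data known.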

Additional observations from a re-analysis of the deposited data

Results flagged for a closer look

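Both results below concern pickpocket genes listed under CG numbers, whose response to RU486 differed between thoraces of Act88F-GS-Gal4 and w1118 flies in a test of the difference itself. They were named after their values were seen.

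CG30181, or ppk3, had 0.735, 0.806 and 3.13 CPM in RU486 thoraces of Act88F-GS-Gal4 flies, against 0.184, 0 and 0.0883 CPM in control thoraces. In w1118 flies it had 0.186, 0.32 and 0.393 CPM in RU486 thoraces, against 0.384, 0.363 and 0.273 CPM in control thoraces. The log2 difference of responses was 4.06 ± 1.14 (SE), with an adjusted p of 0.0375 by edgeR's quasi-likelihood test. Control values of Act88F-GS-Gal4 flies lie near the level of 3 reads, so the size of the fold depends on few reads.

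CG31105, or ppk22, had 0.903, 0.998 and 1.21 CPM in RU486 thoraces of Act88F-GS-Gal4 flies, against 0.860, 0.596 and 0.795 CPM in control thoraces. In w1118 flies it had 2.04, 4.01 and 4.91 CPM in RU486 thoraces, against 9.0, 9.36 and 8.69 CPM in control thoraces. The log2 difference of responses was 1.67 ± 0.41 (SE), with an adjusted p of 0.0219 by edgeR's quasi-likelihood test. In w1118 flies the 24 testis markers summed to 37.4, 944 and 354 CPM in RU486 thoraces, against 621, 1108 and 1232 CPM in control thoraces. CG31105 was lower in all 3 RU486 thoraces than in the controls, and the part of the testis markers in this was not tested.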

How the results depend on the processing

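The count of members called moved most in heads. From 20, it moved to 7 with limma voom, and ran from 0 to 21 when single samples were left out. With no filter on low counts it was 14, and with a mean of at least 10 counts as filter it was 15. Over all genes these fits called 250 and 363. The median log2 fold change of the members in heads was 3.33 with no filter, against 3.97 in the main fit. In Act88F-GS-Gal4 thoraces the count of 0 became 1 with total counts, 4 with DESeq2, 1 with limma on log2(CPM + 1) and 5 with all 18 samples in 1 fit. Over all genes the same fits called 3895, 3982, 3387 and 3677, against 3444 in the main fit. The count of members there ran from 0 to 4 when single samples were left out. For the difference of responses the count of members ran from 0 to 3. In w1118 thoraces it was 0 under every alternative run. Counts between controls stayed within 1.5 times of 26 and 28. No log2 fold change of a named member that was refitted changed sign. Medians of all genes near 0 did, with DESeq2's size factors (0.011 against -0.019 in w1118 thoraces, -0.0086 against 0.0018 in heads). Total counts moved the median of all genes in Act88F-GS-Gal4 thoraces to 0.18. With the replicate number as a block, counts were 15 in heads, 0 in both RU486 comparisons of thoraces, 0 for the difference of responses, 21 for control heads against thoraces and 24 between control thoraces. In heads the block called 168 of all genes, against 616 in the main fit. The cause of these changes was not tested. With 3 samples a group and unequal libraries, calls in heads near the threshold rest on few samples, and genes under about 0.1 CPM rest on few reads.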
